A study of Homo sapiens with 26 samples.

Results

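The genes of translation initiation and elongation factors were followed in SK-MEL-28, a human melanoma cell line, after the integrated stress response (ISR) had been switched on with salubrinal. The members were all rows of the 2 input count files whose symbol begins with Eif1 to Eif6 or with Eef1 or Eef2, leaving out pseudogene names (-ps), the eIF2 kinases, the eIF2 subunits, Eif2b4 and Eif2b5, which gave 62 of 55353 rows. The symbols are mouse-style names, printed here as the files give them, and 55 of the 62 have the same letters as a human gene symbol in RefSeq. One member, Eif2c5, carries an old name of the Argonaute family rather than of a factor and had 0 counts in both libraries.

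The series holds 26 samples. Input RNA was sequenced from 1 culture kept in salubrinal for 72 h and from 1 untreated culture, called control here. The other 24 samples come from sucrose gradients, where each of the 4 pools (polysome, 80S, 60S and 40S) has 3 replicates per treatment, from lysates made after 12 min in cycloheximide at 100 µg/mL, a drug that holds ribosomes on mRNA. Salubrinal keeps the initiation factor eIF2α phosphorylated, and its dose is not stated in the labels. Cycloheximide was part of the protocol in both arms, and the same dose and time are listed for the input samples. Titles name SK-MEL-28 for every sample, whereas the cell-line field counts upwards from sample to sample; groups here rest on the titles. The study set out to compare the RNA carried by ribosomes with and without an active ISR.

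Protein synthesis begins when eIF4F, made of the cap-binding protein eIF4E, the scaffold eIF4G and the helicase eIF4A, binds the mRNA cap, and when eIF3 links the mRNA to the small ribosomal subunit that eIF2 has loaded with the initiator tRNA. eIF1, eIF1A and eIF5 govern the choice of the start codon, eIF5B joins the large subunit, eEF1A brings each aminoacyl-tRNA and eEF2 moves the ribosome on by a codon. Many of these mRNAs begin with a 5′ TOP, a C followed by a run of pyrimidines, through which the kinase mTORC1 governs their translation, and the 4E-BP proteins hold eIF4E back when mTORC1 is low.

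The 2 input libraries held 10245548 (salubrinal) and 12068784 (control) counts on gene rows. Reads that were not aligned made up 27.3% of all salubrinal counts and 14.4% of control counts, and ambiguous reads 3.54% and 9.50%; their part in the ratios below was not tested. Melanocytic marker rows were present in both libraries (Pmel with 13535 and 16793 counts, Mitf with 2598 and 3219, Tyr with 1524 and 963), but Mlana stood at 0 in both and Tyrp1 at 0 and 5. The fibroblast, keratinocyte and leukocyte marker rows reported here had at most 20 counts in a library, and Col1a1, Pdgfrb and Cd3e had 0 in both. Of the 5 measured melanocytic rows 4 were 2-fold lower with salubrinal, beside 3.80% of all rows, with log2 ratios from -1.01 (Mitf) to -2.37 (Dct). The 7 rows summed to 1326 CPM against 2708. These values rest on the TMM scaling described below. The median of the 5 was -1.02 under it, beside 0.02 for all rows. Under total gene-row counts the median of the 5 was -0.07, beside 0.95 for all rows. The part of the melanocytic difference in the factor ratios was not tested. In bulk RNA, fewer cells of a type and less RNA per cell cannot be told apart. A mouse-style reference for human cells means that a row with few counts need not be a gene of low expression. Each ratio therefore compares a row only with itself in the other library. Where counts are summed or ranked over rows below, they describe the rows and not the expression of 1 gene against another.

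With TMM scaling no factor row differed by 2-fold between the salubrinal and the control input. CPM stands for counts scaled to a common library size. Ratios are log2 of salubrinal over control counts after scaling by trimmed means (TMM) with a prior count of 2, for the 56 members with at least 50 counts over both libraries. Their median was 0.08, beside 0.02 over all 10614 rows with that many counts, and the middle 50% of members lay between -0.16 and 0.42, beside -0.30 and 0.32 for all rows. Above 0 lay 32 of the 56 (57.1%, beside 52.0% of all rows). None of the 56 was 2-fold higher or lower, where the share of all rows was 2.75% higher and 3.80% lower. At 1.5-fold 6 members were higher (10.7%, beside 11.0% of all rows) and 2 were lower (3.57%, beside 12.1%). Members had more counts per row than all rows, and rows with few counts scatter more. With at least 200 counts, 10.6% of members and 9.63% of all rows were 1.5-fold higher, and 4.26% and 9.21% lower. Of the 6851 rows with that many counts, 141 were 2-fold higher and 170 were 2-fold lower. The share of members that were higher is thus near that of all rows. These calls rest on the scaling. With library sizes taken as total gene-row counts, which moved the median of all rows by 0.93, 28 members were 2-fold higher, 48 were 1.5-fold higher and 0 were 1.5-fold lower. The shares of all rows past these folds were not taken under that scaling. Measured from the median of all rows under it (0.95), 0 members were 2-fold higher. With totals that leave out ribosomal and mitochondrial rows, which moved the median of all rows by -0.09, the split was 4 higher and 5 lower, and Eef2k was 2-fold lower at -1.01. With 1 library per treatment there is no replicate and no test, and the 95% intervals given are exact binomial ones that cover counting error only.

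The 6 rows at least 1.5-fold higher were Eif1b, Eef1a1, Eef1akmt2, Eif4ebp1, Eif5 and Eif4e3, and the 2 at least 1.5-fold lower were Eef2k and Eif4g1. Under totals without ribosomal and mitochondrial rows Eif5 (0.51) and Eif4e3 (0.50) were no longer 1.5-fold higher, and under total gene-row counts Eef2k (0.00) and Eif4g1 (0.25) were no longer lower. The counting interval lay wholly above 0 for 25 members (44.6%, beside 25.1% of all rows) and wholly below it for 11 (19.6%, beside 23.0%). Members had a median of 1053 counts and all rows one of 335, so members' intervals are the narrower ones and these shares are not on an equal footing. With at least 200 counts, 51.1% of members and 31.9% of all rows had an interval above 0, and 21.3% and 25.7% one below. The median counts were then 1860 and 636, so the footing was still not equal.

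**Figure D1:**
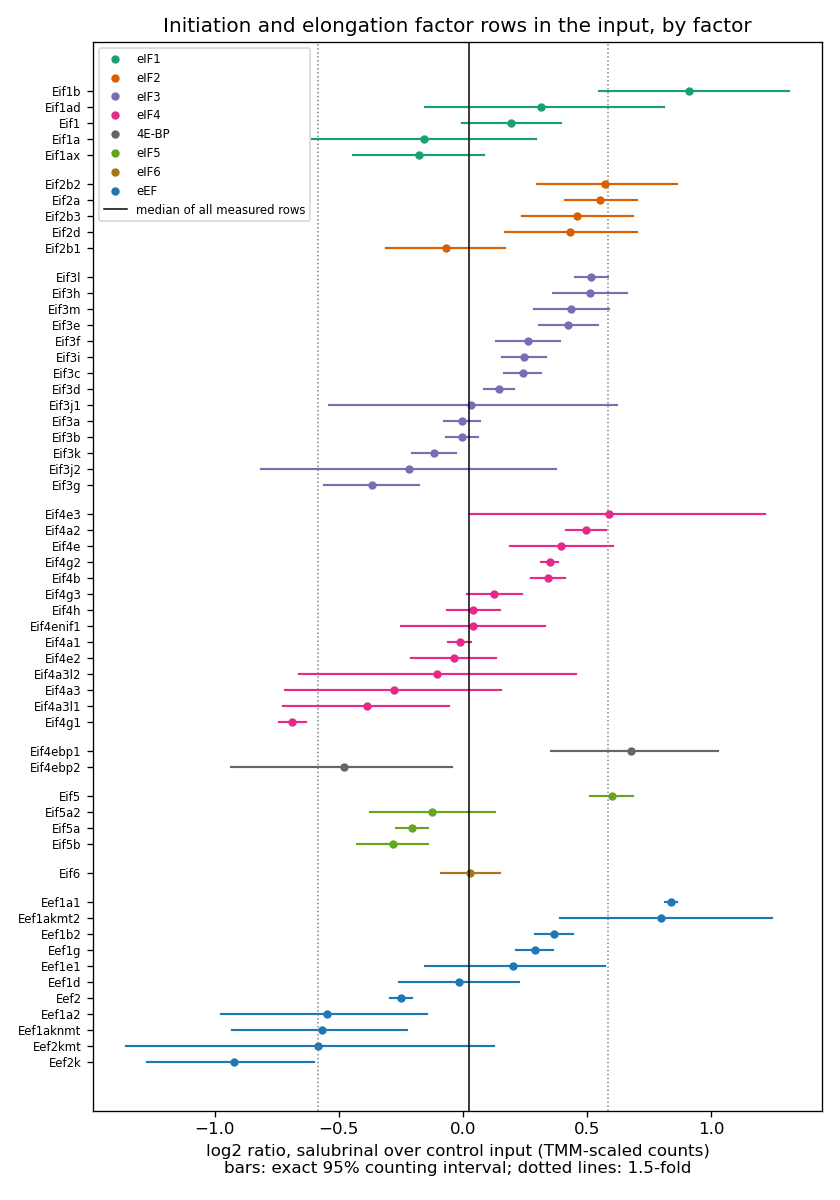
Log2 ratio of salubrinal over control input for the 56 measured factor rows, 1 point per row and colour per factor, with exact 95% counting intervals as bars, the median of all rows (0.02) as a solid line and 1.5-fold as dotted lines. Most points lie between the dotted lines, with Eif1b (0.91) farthest to the right and Eef2k (-0.92) farthest to the left.

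**Figure D2:**
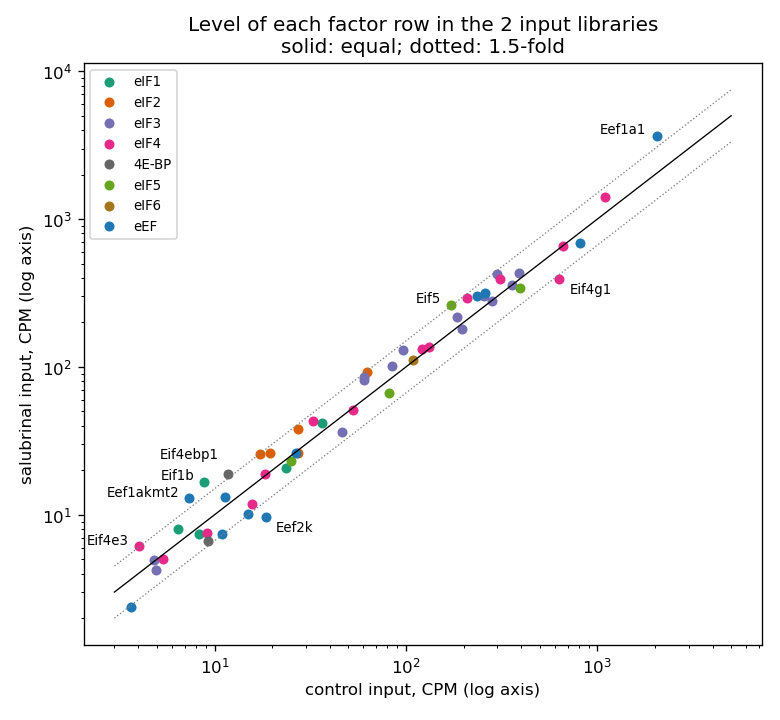
Library-scaled counts (CPM) of each measured factor row in the control (x, log axis) and salubrinal input (y, log axis), with equality as a solid line and 1.5-fold as dotted lines. The 8 named rows lie outside the dotted lines, and Eef1a1 is the row with the most counts.

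Because several factor mRNAs are textbook 5′ TOP mRNAs, the first bases of the human genes were read from RefSeq (GRCh38.p14). A start was called TOP-like when a C within 3 bases of the annotated start was followed by at least 4 pyrimidines. Of the 44 members with a promoter in the table, 15 had such a start (34.1%), beside 16.0% of all 27305 genes there. The sequences below run from 5 bases before to the first 20 bases of the transcript, with the C and its pyrimidine run in capitals; the first 6 show TOP-like starts of rows that were higher and of rows that were lower, and the last 3 show starts of rows that were also higher or lower but lack the feature.
EEF1A1: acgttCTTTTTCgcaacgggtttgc
EEF1B2: cgggtCCTTTTTCCTCTCTTCagcg
EIF4B: cgggtCTTTTgcgttctctttccct
EIF3F: gcctcCTTCTTTCTCgacaagatgg
EEF2: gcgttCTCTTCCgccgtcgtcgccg
EIF4G1: gaCCCTCacttgcctgaaaccggct
EIF1B: tgtgcgagaagccgcagcgccgcct
EIF2B2: gccccggaagtgcaaactgtgtggt
EEF2K: cttctgctcaacctagaccagcccc
They lie at chr6:73521013-73521037 (minus strand, EEF1A1), chr2:206159890-206159914 (plus, EEF1B2), chr12:53006451-53006475 (plus, EIF4B), chr11:7987332-7987356 (plus, EIF3F), chr19:3985444-3985468 (minus, EEF2), chr3:184315159-184315183 (plus, EIF4G1), chr3:40309702-40309726 (plus, EIF1B), chr14:75002916-75002940 (plus, EIF2B2) and chr16:22206273-22206297 (plus, EEF2K).

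The TOP-like starts did not sort the factor rows by direction. The 15 measured members with one had a median ratio of 0.34 and ran from -0.69 (Eif4g1) to 0.84 (Eef1a1), and the 26 without had a median of 0.16 and ran from -0.92 (Eef2k) to 0.91 (Eif1b), so both ranges overlap almost wholly. Above 0 lay 10 of the 15 (66.7%) and 17 of the 26 (65.4%). Over all matched rows the medians were 0.01 for 1375 rows with such a start and -0.02 for 5469 without. These are ratios of input RNA, so an effect of the TOP on translation was not tested. EEF1B2 has such a start at 1 of its 2 annotated promoters and EIF4G1 at 1 of 3, and an annotated start is not a start measured in these cells. The motif TGATGNAAT, the core of composite ATF4 sites, was searched on both strands from 250 bases before to 50 bases after the start. It was in 0 of the 44 member genes, beside 1.22% of all 27305 genes and 0.991% of all 35116 promoters. At so low a share over all genes, 0 of 44 does not set the members apart. EIF4EBP1 had no promoter in the reference used and was not searched.

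Among the eIF1 rows only Eif1b was 1.5-fold apart. Eif1b, a close copy of the scanning factor eIF1, had 238 counts with salubrinal and 77 without, or 16.8 and 8.84 CPM, a log2 ratio of 0.91 (0.55 to 1.31), the highest of all members. Eif1 itself had 591 and 317 counts, or 41.6 and 36.4 CPM, with a ratio of 0.19 whose interval (-0.01 to 0.40) holds 0. Eif1ax, a row of eIF1A, was lowest at -0.18 (-0.44 to 0.08), from 295 and 205 counts, or 20.8 and 23.5 CPM. Eif1a, the other eIF1A row, stood at -0.16, and Eif1ad, an eIF1A-domain protein gene, at 0.31 (-0.15 to 0.81), which overlaps the interval of Eif1b. The intervals of Eif1a and Eif1ad hold 0.

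Of the 5 measured rows around eIF2, 4 were higher in the salubrinal library with intervals wholly above 0 (80%), where 25.1% of all rows and 31.9% of all rows with at least 200 counts had such an interval. Among all members with at least 200 counts the share was 51.1%. The members here are eIF2B, which reloads eIF2 with GTP and which phosphorylated eIF2 blocks, and the factors eIF2A and eIF2D, which can bring tRNA to the ribosome without eIF2. Eif2b2, the β subunit, had 365 and 150 counts with and without salubrinal, or 25.7 and 17.2 CPM, a ratio of 0.57 (0.30 to 0.86). Eif2b3, the γ subunit, stood at 0.46 (0.24 to 0.69), while Eif2b1, the α subunit, was at -0.07 (-0.31 to 0.17), from 371 and 239 counts, or 26.1 and 27.4 CPM. Eif2a was at 0.55 (0.41 to 0.70), from 92.4 and 62.9 CPM, and Eif2d at 0.43 (0.17 to 0.70). The group median of 0.46 was the highest of the factor groups with over 2 measured rows, but none of the 5 reached 1.5-fold.

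All 14 rows of eIF3, the large complex that holds the small subunit and the mRNA together, were measured, and none was 1.5-fold apart. Their median was 0.19, with 8 intervals above 0 (57.1%, beside 25.1% of all rows) and 2 below (14.3%, beside 23.0%). The eIF3 rows had a median of 3480 counts against 335 for all rows, and so narrower intervals. The highest was Eif3l, with 6048 and 2595 counts, or 426 and 298 CPM, a ratio of 0.52 (0.45 to 0.58), followed by Eif3h (0.51), Eif3m (0.43) and Eif3e (0.42). Eif3a, the scaffold subunit, and Eif3b, which anchors the outer module, were equal between libraries, at 280 and 280 and at 358 and 359 CPM, with ratios of 0.00 and 0.00 and intervals within 0.08 of 0. The lowest was Eif3g, which binds RNA and eIF4B, at -0.37 (-0.56 to -0.18), from 512 and 406 counts, or 36.1 and 46.6 CPM, and Eif3k stood at -0.12 (-0.21 to -0.03). The other 6 rows ran from -0.22 (Eif3j2) to 0.26 (Eif3f). Split by structure, a split made after the values were seen, the 8 rows of the core that shares the PCI and MPN folds (Eif3a, c, e, f, h, k, l and m) had a median of 0.34 and the 6 rows of the outer subunits (Eif3b, d, g, i, j1 and j2) one of 0.01, with ranges of -0.12 to 0.52 and -0.37 to 0.24 that overlap.

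The eIF4 rows had a median of 0.04 over 14 measured members and parted within families. Of the scaffolds, Eif4g1 was lower with salubrinal, at 393 CPM against 633, a ratio of -0.69 (-0.74 to -0.63) from 5579 and 5517 counts. Eif4g3, its close relative, was at 0.13 (0.02 to 0.24), and Eif4g2, which lacks the eIF4E-binding part and supports initiation without the cap-binding protein, was higher at 1401 against 1099 CPM, or 0.35 (0.31 to 0.38). The intervals of the 3 scaffold rows do not overlap, but they cover counting error only.

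Of the helicases, Eif4a2 was higher at 294 against 209 CPM, or 0.49 (0.41 to 0.57), while Eif4a1, the main eIF4A of dividing cells, was equal at 657 and 663 CPM, or -0.01 (-0.06 to 0.03). Eif4a3, a core part of the exon junction complex rather than of initiation, and its copies Eif4a3l1 and Eif4a3l2 stood at -0.28, -0.39 and -0.11, and reads of near-identical copies may fall on either row or on none. The helicase cofactor Eif4b was at 0.34 (0.28 to 0.41), from 5594 and 2707 counts, and its relative Eif4h at 0.04 (-0.06 to 0.15).

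Of the cap-binding proteins, Eif4e had 611 and 285 counts, or 43.0 and 32.7 CPM, a ratio of 0.39 (0.19 to 0.60). Eif4e3, a minor cap binder, was past 1.5-fold at 0.59, but from 87 and 35 counts, or 6.13 and 4.02 CPM, with an interval of 0.03 to 1.22. Eif4e2, which represses translation together with GIGYF2, was at -0.04 (-0.21 to 0.13), and Eif4enif1, which carries eIF4E into the nucleus, at 0.04. Eif4e1b, an oocyte form, had 0 counts in both.

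The 4E-BP rows, whose proteins keep eIF4E from eIF4G, lay on opposite sides. Eif4ebp1, a known target gene of ATF4, had 270 and 103 counts with and without salubrinal, or 19.0 and 11.8 CPM, a ratio of 0.68 (0.35 to 1.03). Eif4ebp2 had 94 and 81 counts, or 6.62 and 9.30 CPM, a ratio of -0.48 (-0.93 to -0.04). The intervals do not overlap, but they cover counting error only. Eif4ebp3 had 1 and 0 counts, too few for a ratio.

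Among the eIF5 rows Eif5, the GTPase-activating partner of eIF2, was higher at 262 against 173 CPM, or 0.60 (0.51 to 0.69), from 3717 and 1505 counts. Eif5b, which joins the large subunit, was lower at 67.1 against 81.6 CPM, or -0.28 (-0.43 to -0.14), from 952 and 711 counts. Eif5a, the hypusine-bearing factor that helps ribosomes through slow peptide bonds, was at -0.20 (-0.27 to -0.14), from 4837 and 3420 counts, and its copy Eif5a2 at -0.12 (-0.38 to 0.13). Eif6, which keeps free large subunits from joining, was at 0.03 (-0.09 to 0.15), from 1574 and 946 counts, or 111 and 109 CPM.

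The elongation rows spanned the widest range of any group, from -0.92 to 0.84 over 11 measured members. Eef1a1, the main carrier of aminoacyl-tRNA, had 51683 and 17744 counts, or 3641 and 2037 CPM, a ratio of 0.84 (0.81 to 0.86). Eef1a2, the form of muscle and neurons, was at -0.55 (-0.97 to -0.14), from 105 and 95 counts. Of the subunits of eEF1B, which reloads eEF1A with GTP, Eef1b2 was at 0.37 (0.29 to 0.44), Eef1g at 0.29 (0.22 to 0.36) and Eef1d at -0.02 (-0.26 to 0.23). Eef1e1, a relative of the eEF1B subunits found in the tRNA synthetase complex, was at 0.20 with an interval that holds 0.

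Eef2, the translocase, was lower, at 684 against 813 CPM, or -0.25 (-0.29 to -0.20). Eef2k, the kinase that inhibits eEF2, had 138 and 162 counts, or 9.72 and 18.6 CPM, a ratio of -0.92 (-1.27 to -0.60), the lowest of all members. Of the enzymes that methylate the elongation factors, Eef1akmt2 was at 0.80 (0.39 to 1.24), from 183 and 64 counts or 12.9 and 7.35 CPM, Eef1aknmt at -0.57 (-0.93 to -0.23) and Eef2kmt at -0.58 (-1.36 to 0.13), while Eef1akmt1, Eef1akmt3 and Eef1akmt4 had 4, 18 and 7 counts in all.

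**Figure D3:**
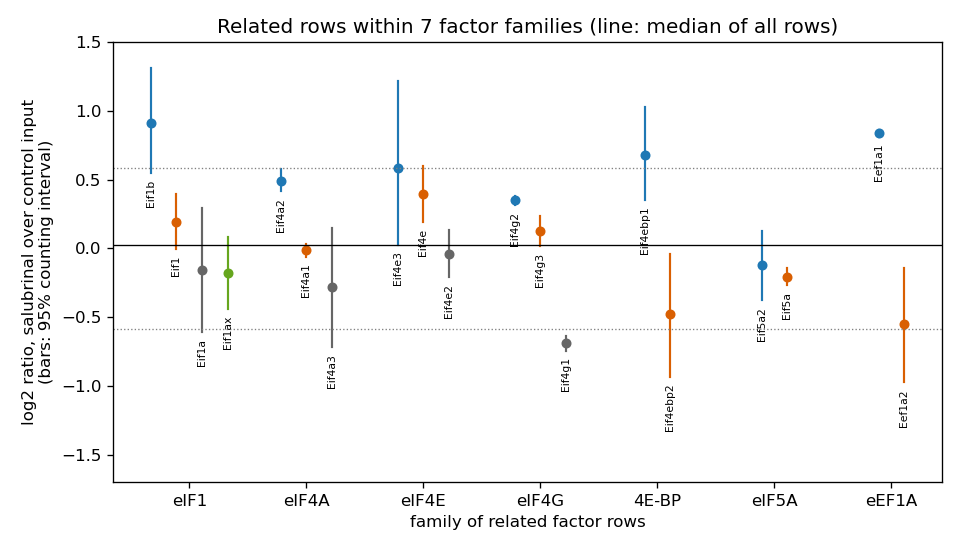
Log2 ratio of salubrinal over control input for related rows in 7 factor families, each point a row with its exact 95% counting interval, the median of all rows as a solid line and 1.5-fold as dotted lines. Eif1b, Eif4a2, Eif4e, Eif4g2, Eif4ebp1 and Eef1a1 sit above a relative whose interval does not overlap theirs (Eif1, Eif4a1, Eif4e2, Eif4g1, Eif4ebp2 and Eef1a2). Eif4g3 also sits above Eif4g1 without overlap. The intervals cover counting error only. Of all rows with at least 200 counts, 31.9% had an interval wholly above 0 and 25.7% one wholly below it. How often other pairs of rows of like depth part in this way was not tested.

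The summed level of all 62 members was 12349 CPM with salubrinal and 10107 CPM without under TMM scaling, and 1.71% against 0.729% of all gene-row counts. These 2 percentages also vary with the ribosomal and mitochondrial rows in their totals. Without such rows, 6.85e+06 of 10245548 counts remained with salubrinal and 3.96e+06 of 12068784 in the control. Eef1a1 made up most of the difference in CPM: without it the sums were 8709 and 8070 CPM, and the median ratio of the other 55 measured rows was 0.04. The pseudogene-named rows of the same genes, which the rule leaves out, were counted in the same 2 libraries. Reads of near-identical sequence may fall on either row, so these rows are not an independent reading. Eef1a1-ps1 and Eef1a1-ps2 had ratios of 0.73 (0.64 to 0.83) and 0.83 (0.72 to 0.94), from 4596 and 3561 counts, and Eef2-ps2 had one of -0.44 (-0.56 to -0.32). Of the copies named for an old symbol of Eif3e, Eif3s6-ps2 was at 0.83 (0.68 to 0.99), Eif3s6-ps3 at 0.41 (0.19 to 0.65) and Eif3s6-ps4 at 1.29 (0.66 to 2.09), where Eif3e itself was at 0.42 (0.31 to 0.54), so reads of a gene and of its copies need not share a ratio.

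The other genes of the pathway were taken as 4 lists, whose counts stand beside 11.0% of all rows 1.5-fold higher and 12.1% lower. Of the 10 genes of termination, recycling and rescue, all measured, 0 were 1.5-fold apart; the median was 0.21, with the release factor gene Gspt2 highest at 0.51 and Pelo, which rescues stalled ribosomes, lowest at -0.20. Of 16 measured RNA-binding helpers of initiation 0 were 1.5-fold higher and 1 was lower, Abcf1, a partner of eIF2, at -0.65 (379 and 365 counts); Pdcd4, an inhibitor of eIF4A, was highest at 0.58, and the poly(A)-binding protein row Pabpc1 was at 0.00. Of 11 measured genes of mTORC1 and the eIF4E kinases 2 were 1.5-fold higher, Ddit4, an inhibitor of mTORC1 made under stress, at 1.26 (617 and 157 counts) and Rheb, its activator, at 0.63; the list's median was -0.29, with Rptor at -0.53 and the eIF4E kinase rows Mknk1 and Mknk2 at -0.56 and -0.43. Of 6 measured enzymes that modify eIF5A and eEF2 2 were 1.5-fold higher, the diphthamide enzymes Dph6 and Dph5, both at 0.66, and Dhps, the first hypusine enzyme, was at 0.24.

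**Figure D4:**
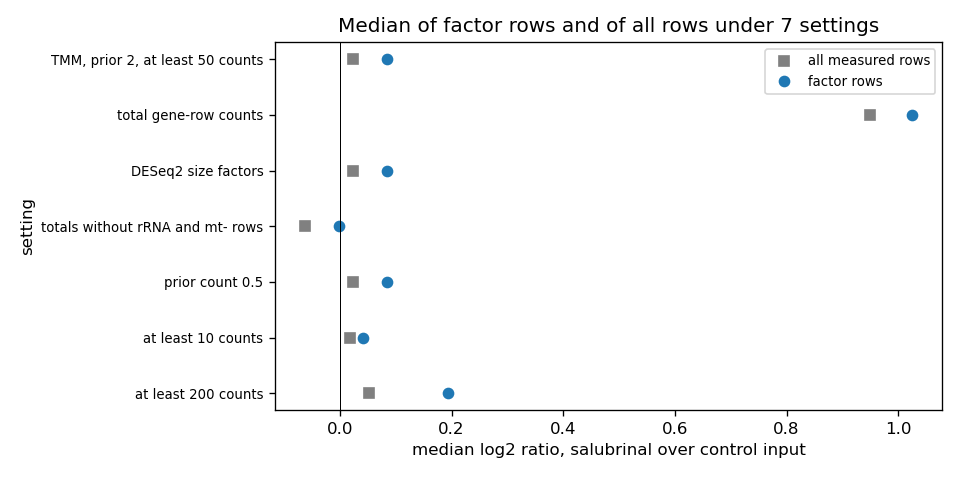
Median log2 ratio of the factor rows (circles) and of all measured rows (squares) under 7 settings of scaling, prior count and filter. Scaling by total gene-row counts moves both medians by about the same amount, to 1.02 and 0.95, and the distance between them runs from 0.02 to 0.14.

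In the gradient fractions the factor rows held too few reads to compare. Human symbols matched 50 of the 62 members there; 28 had at least 1 count, and together they held 343 counts over the 24 files, 0.118% of the counts outside nuclear ribosomal RNA rows. EIF3I had 72, EIF2B1 56, EIF5B 35 and EIF3L 26, and no other matched row reached 24. There were 4 counts on EEF1A1, 4 on EIF4G2 and 0 on EIF4A1 and EIF4G1; levels are not compared with the input, whose rows are named for another reference. How strand entered the counting is not stated in the labels, and EIF3I, EIF2B1 and EIF5B overlap another gene by position (MTMR9LP, DDX55 and REV1), so reads on these rows may belong to either gene.

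Outside ribosomal RNA rows the 60S, 80S and polysome files of a replicate differed by about sampling noise, with chi-square per degree of freedom of 1.01 to 1.13 within the 6 sets, against 9.21 between the salubrinal and 2.04 between the control replicates. Each set was therefore summed and counted as 1 sample. The 40S files were left out of the sums, because with them as titled the value was 1.23 in control replicate 1 and 1.47 in control replicate 2. With the control 40S files of these replicates exchanged it was 0.988 and 0.963, so their numbers may be crossed in the titles. The sums held 2895 to 70423 counts outside ribosomal RNA rows. The labels name no separate cultures for the replicates, and a p-value here therefore reflects only how these samples spread, which may be technical.

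EIF3I, whose protein sits in the outer module of eIF3, had 18, 3 and 21 counts in control replicates 1, 2 and 3 and 0, 0 and 12 in salubrinal replicates 1, 2 and 3. EIF2B1 had 18, 3 and 14 in the controls and 0, 0 and 13 with salubrinal. EIF5B had 7, 0 and 13 against 2, 0 and 9, and EIF3L 2, 1 and 5 against 1, 0 and 8. In these sums of the 60S, 80S and polysome files, all salubrinal counts of EIF3I and EIF2B1 came from replicate 3. It was the deepest salubrinal library, with 55264 counts against 7646 and 2895 in the others, and the groups overlap. The salubrinal 40S files, left out of the sums, held 4 counts of EIF3I and 3 of EIF2B1. TMM factors ran from 0.0943 to 5.13 over the 6 libraries. EIF3I and EIF2B1 were the only 2 factor rows deep enough to be tested, and neither passed: edgeR gave log2 fold changes of -0.40 ± 0.51 (SE, adjusted p = 0.78) for EIF3I and -0.03 ± 0.53 (adjusted p = 0.994) for EIF2B1, n = 3 libraries per group. Of all 727 rows tested 42 were called (5.78%). Among factor rows 0 were called and 0 had an unadjusted p under 0.05, and without the count filter 0 of 36 rows with a factor name, pseudogenes included, were called by edgeR and 0 by DESeq2, with 0 at an unadjusted p under 0.05 in either. Without salubrinal replicate 3, EIF3I and EIF2B1 had no treated count left in the sums. The unadjusted p of edgeR for EIF3I was then 0.0458, and the adjusted p was 0.337 for both.

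**Figure D5:**
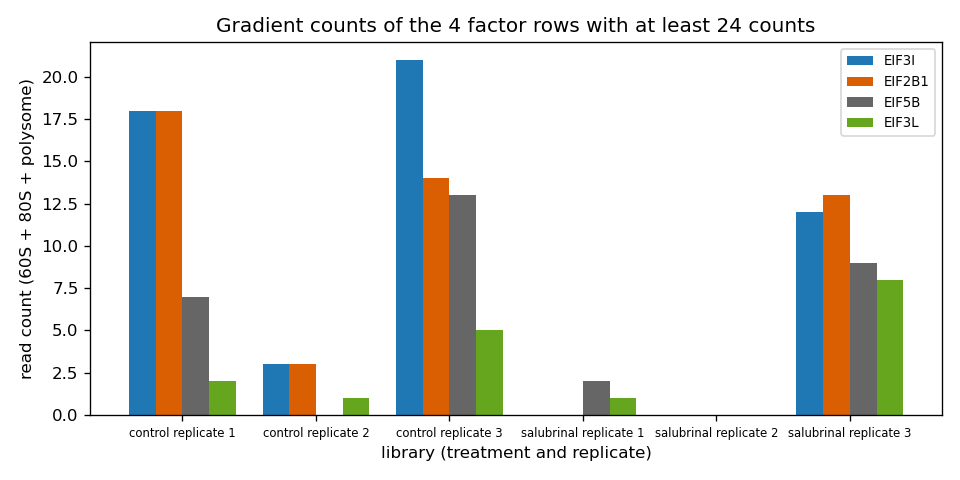
Read counts of the 4 factor rows with at least 24 counts over the 24 fraction files, as the sum of the 60S, 80S and polysome files of each library (x, treatment and replicate; bars start at 0). Control replicates 1 and 3 and salubrinal replicate 3 hold nearly all counts, up to 21 per row, and salubrinal replicate 2 holds 0.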

How the data were processed

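The deposited files give read counts per gene row, which the authors did not normalize. The build hg19, HTSeq 0.5.3p3, DESeq, STAR, FastQC 0.11.5 and SAMtools 0.1.19.24 are named, per the submitters' processing notes; the strand setting and the reference behind the mouse-style input rows are not stated. Libraries were stranded total RNA ones, per the labels' protocols. Rows that name no gene stayed out of library sizes; the largest of them, reads not uniquely aligned, held 48.6% of all salubrinal and 52.6% of all control input counts.

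Input ratios used TMM factors of edgeR 4.0.16 (R 4.3.3) and exact conditional binomial 95% intervals. The fractions were tested with edgeR (filterByExpr, TMM, robust quasi-likelihood test, Benjamini-Hochberg threshold 0.05 over all rows), with DESeq2 1.42.0 as an alternative; standard errors are the log2 fold change over the normal deviate of its p. Both steps were tested on simulated data. Rows with at least 200 input counts, and fraction rows with at least 24 counts or enough to be tested, are given by value or range; rows at least 1.5-fold apart, each group's extremes and the 4E-BP rows are given in full. Members and lists were chosen with earlier results of these data known. Protein motifs were not analysed here. A listed marker row is not reported here.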

Additional observations from a re-analysis of the deposited data

How the results depend on the processing

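Of the input results on all factor rows, those under DESeq2 size factors and under a prior count of 0.5 stayed close to the values reported. Total gene-row counts moved the median of all rows by 0.93, to 0.95. Under them 28 factor rows were 2-fold higher, 48 were 1.5-fold higher, 0 were 1.5-fold lower and the median of the factor rows was 1.02. Measured from the median of all rows under that scaling, 0 factor rows were 2-fold higher. Totals without ribosomal and mitochondrial rows gave 1 row 2-fold lower, 5 rows 1.5-fold lower and a median of -0.0023. A minimum of 10 counts gave 1 row 2-fold lower and a median of 0.042, and a minimum of 200 counts gave a median of 0.19 over 47 rows; the filters change which rows enter. In the fractions the count of factor rows called was 0 with the 40S files included as titled, with RLE factors, with DESeq2 and without a filter, with a range of 0 to 0 on leaving out each replicate. With 1 pool at a time, or with ribosomal RNA rows removed, 0 factor rows were deep enough to be tested, so those runs say nothing about them; calls over all rows ran from 0 (edgeR without control replicate 3, with 74 rows at an unadjusted p under 0.05, and DESeq2 without a filter, with 46) to 89. With the replicate number as a block 0 factor rows and 10 of 727 rows were called. Deviations of same-numbered samples correlated at -0.05, 0.17 and 0.30, and those of different-numbered samples at -0.29 to 0.13. The labels do not say that the numbers pair samples, so the main fit used no block. Depth limits the fractions, with 343 counts on all matched factor rows.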
